A study of Zea mays with 12 samples.

Results

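At the base of the maize kernel, 33 of the 39423 gene models measured had high RNA levels in the basal endosperm transfer layer (BETL) at 8 days after pollination (DAP) and much lower levels in that tissue at 14 and 20 DAP and in the maternal tissue facing it. They were chosen by these very levels, given as FPKM, a level scaled to transcript length and library size. A member needed a BETL 8 DAP mean of at least 30 FPKM that was at least 4 times the mean of BETL at 14 DAP, of BETL at 20 DAP and of the maternal tissue at 8 DAP, with 1 added to every mean. It also needed a BETL mean under 4 times the maternal mean at 14 or at 20 DAP, and a maternal mean under 3 times the BETL mean at 20 DAP. A further 2 genes met these thresholds and are not described here. Both have descriptive names in RefSeq, and no member has one, so the lack of names is partly a result of the choice. The 8 DAP values of BETL against every other group are therefore given as a description, and counts of test calls on them support nothing.

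RNA was sequenced from BETL and from the maternal transfer zone (MATZ) of wild-type kernels of the W22 inbred, taken from field-grown ears at 8, 14 and 20 DAP by dissection of frozen tissue. Each tissue and age has 2 libraries, which makes 6 groups and 12 libraries, and no group carries a treatment or an altered gene. Nothing in the labels ties replicate numbers to different plants, so p-values measure the spread between libraries, which may be technical. Dissected layers can hold cells of neighbouring tissues.

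The BETL is the epidermal layer of the endosperm that faces the mother plant. Its cells build wall ingrowths that enlarge the plasma membrane, cleave sucrose with a cell wall invertase, and import sugars, amino acids and minerals for the growing endosperm and embryo. The layer is also known for large amounts of small secreted cysteine-rich peptides of the BETL, BAP and MEG families. The MATZ lies on the maternal side, where nutrients leave the phloem end and cross into the space from which the BETL takes them up.

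The tissue labels were set against marker genes before the members were described. The summed level of 10 BETL marker genes was 50817 and 60778 FPKM in the BETL libraries at 8 DAP, 52386 and 62267 FPKM at 14 DAP, and 96121 and 87903 FPKM at 20 DAP. In MATZ the same sum was 2290.1 and 2909 FPKM at 8 DAP, 7670.3 and 6990.1 FPKM at 14 DAP, and 11789 and 10436 FPKM at 20 DAP, with 1 of the 10 genes (tcrr1) at 0 in both libraries at 8 DAP. The summed level of 5 maternal markers lay between 156 and 308 FPKM in the 6 BETL libraries and between 1884 and 2210.4 FPKM in the 6 MATZ libraries. At 8 DAP zag2 averaged 149 FPKM in BETL and 234 FPKM in MATZ, and MADS4 103 and 462 FPKM. For zag1 these means were 25.3 and 72.2 FPKM, and for kn1 0 and 1.34 FPKM. Much of the MATZ sum at 8 DAP thus came from the remaining maternal marker. Markers of starchy endosperm, which lies above the BETL, summed to 91.4 and 81.3 FPKM in BETL at 8 DAP, 4028 and 3916 FPKM at 14 DAP, and 1487 and 1422 FPKM at 20 DAP. In MATZ they summed to 56.1 and 78.9 FPKM at 8 DAP, 10318 and 9943 FPKM at 14 DAP, and 801 and 1012 FPKM at 20 DAP. At the same ages in BETL, 5 embryo markers summed to 26.9 and 7.22 FPKM, 452 and 477 FPKM, and 193 and 204 FPKM, and 3 markers of the embryo surrounding region to 653 and 812 FPKM, 1217 and 2097 FPKM, and 461 and 463 FPKM. In MATZ the embryo markers summed to 14.1 and 34.4 FPKM, 44.3 and 105 FPKM, and 108 and 180 FPKM. The markers of the embryo surrounding region summed there to 12.4 and 17.1 FPKM, 191 and 237 FPKM, and 53.8 and 14.9 FPKM. At 8 DAP 2 vascular markers summed to 94.1 and 86.9 FPKM in BETL and 22.4 and 8.71 FPKM in MATZ. Their sum was higher in BETL at the later ages too. Aleurone markers (4 genes) summed to at most 12.1 FPKM in any library. Sequencing depth is not given, and steps in the low values correspond to between 94114 and 602294 gene-assigned fragments per library, with 122752 and 223310 in the BETL libraries at 8 DAP. Where 2 steps were found they differed and were averaged, as in replicate 1 of BETL at 8 DAP (6898 and 9947 FPKM times bp). In replicate 2 of MATZ at 8 DAP and both MATZ libraries at 20 DAP only 1 step was found. The depths are thus approximate. These fragment numbers are an inference from the table and cover counting error only where they are used below. For single genes they take the whole span from start to end as the length, so they are too high where a span holds introns.

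Abundance among the members ran from a BETL 8 DAP mean of 31.0 to 7420.0 FPKM, with a median of 84.5 FPKM. The median member mean in BETL was 8.52 FPKM at 14 DAP and 2.76 FPKM at 20 DAP. In MATZ it was 1.94 FPKM at 8 DAP, 1.82 FPKM at 14 DAP and 0 FPKM at 20 DAP. On means with 1 added, BETL at 8 DAP stood above BETL at 14 DAP by a median of 8.99 times (range 4.07 to 92.5), above BETL at 20 DAP by 20.4 times (4.85 to 92.5), and above MATZ at 8 DAP by 33.9 times (4.43 to 185). Both BETL 8 DAP libraries were above all of the other 10 libraries in 32 of the 33 members, against 2.09% of the 24213 tested genes, and the rule itself chose for this order. In bulk tissue, fewer cells that hold a transcript and less of it per cell cannot be told apart.

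**Figure D1:**
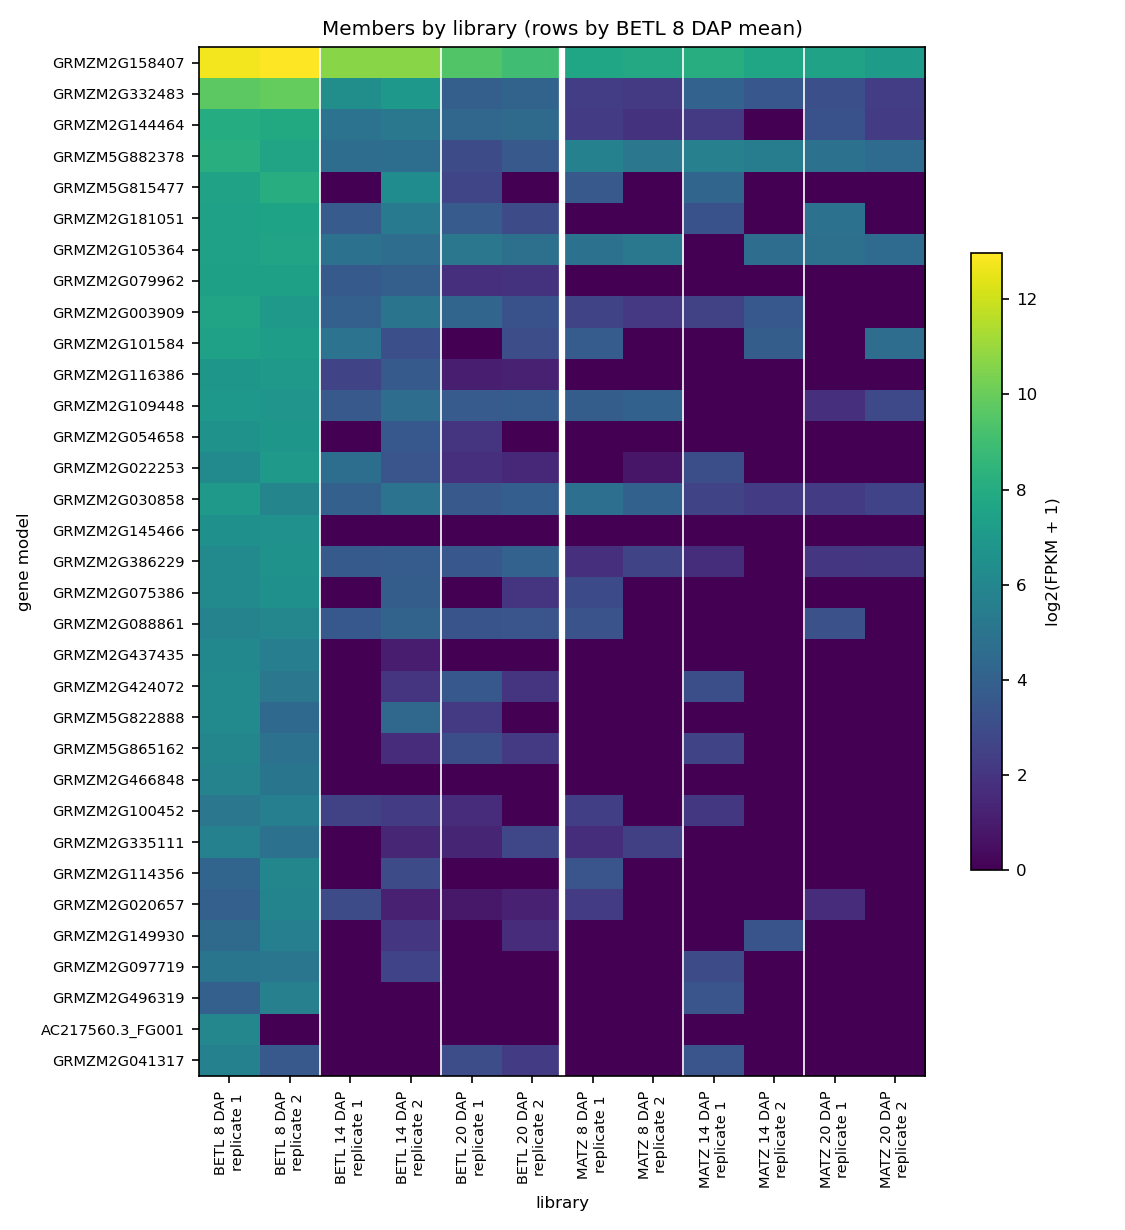
Level of each of the 33 members (rows, ordered by BETL 8 DAP mean) in each of the 12 libraries (columns, BETL left of MATZ, ages in order), as log2(FPKM + 1) on the colour scale. The left pair of columns is the brightest in every row except that of AC217560.3_FG001, which was listed at 64.0 and 0 FPKM there.

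The members' summed level was 10634 and 11925 FPKM in the BETL libraries at 8 DAP, which is 1.202% and 1.32% of all FPKM in those libraries. It was 1931 and 2212 FPKM in BETL at 14 DAP, and 901 and 685 FPKM in BETL at 20 DAP. In MATZ it was 394 and 347 FPKM at 8 DAP, 431 and 319.6 FPKM at 14 DAP, and 297 and 227 FPKM at 20 DAP. A single gene model, GRMZM2G158407, made up most of each of these sums. Without it the members summed to 3863 and 3855 FPKM in BETL at 8 DAP, 323 and 554 FPKM at 14 DAP, and 196 and 178 FPKM at 20 DAP. The MATZ sums without it were 193 and 122 FPKM at 8 DAP, 158 and 116 FPKM at 14 DAP, and 119 and 91.0 FPKM at 20 DAP. The order of the ages in BETL was thus the same with and without the most abundant member. All MATZ libraries were below all BETL libraries in the full sum, and without this member the BETL libraries at 20 DAP overlapped those of MATZ.

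GRMZM2G158407 (chromosome 3, 155457171 to 155458057, forward strand) was the most abundant member and stood at the level of the classical BETL transcripts. Its level in BETL was 6770.4 and 8069.6 FPKM at 8 DAP, 1608 and 1659 FPKM at 14 DAP, and 705 and 507 FPKM at 20 DAP. In MATZ it was 200.3 and 226 FPKM at 8 DAP, 273 and 204 FPKM at 14 DAP, and 178 and 136 FPKM at 20 DAP. The 3 BETL ages did not overlap, and the MATZ libraries lay within a narrow range below all of them. Its BETL mean exceeded its MATZ mean 6.82 times at 14 DAP and 3.84 times at 20 DAP, on means with 1 added, so it met the rule's upper bound of 4 only at the later age and by a small margin. It no longer met the rule after median-of-ratios scaling or quantile normalization.

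GRMZM2G332483 (chromosome 4, 210190455 to 210192502, forward strand) was next, with 823 and 967 FPKM in BETL at 8 DAP, 82.8 and 119 FPKM at 14 DAP, and 14.3 and 16.3 FPKM at 20 DAP. In MATZ its level was 4.09 and 3.61 FPKM at 8 DAP, 15.9 and 10.4 FPKM at 14 DAP, and 7.86 and 4.13 FPKM at 20 DAP. Its ratio of BETL to MATZ at 8 DAP, 185 times, was the highest of all members. It was also among the 8 members that met the rule under each of 16 other settings of scaling, added constant and libraries left out. GRMZM2G144464 (chromosome 8, 18349511 to 18350973) had 263 and 235 FPKM in BETL at 8 DAP, 29.4 and 36.2 FPKM at 14 DAP, and 18.7 and 21.5 FPKM at 20 DAP. Its MATZ levels were between 0 and 8.54 FPKM. Replicates agreed within 1.2-fold at 8 DAP for each of these 3 most abundant members.

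Some members kept a clear level in MATZ while their BETL level dropped. GRMZM5G882378 (chromosome 5, 46944200 to 46947563) had 277 and 192 FPKM in BETL at 8 DAP, 24.1 and 25 FPKM at 14 DAP, and 7.17 and 11.4 FPKM at 20 DAP. In MATZ it had 51.5 and 34.7 FPKM at 8 DAP, 49.0 and 44.0 FPKM at 14 DAP, and 27.4 and 21.9 FPKM at 20 DAP, so that at both later ages every BETL library lay below every MATZ library of its age. GRMZM2G105364 (chromosome 9, 31907012 to 31908736) had 171 and 187 FPKM in BETL at 8 DAP, 28.3 and 23.8 FPKM at 14 DAP, and 34.4 and 26.3 FPKM at 20 DAP. In MATZ this gene had 28.0 and 35.7 FPKM at 8 DAP, 0 and 24.1 FPKM at 14 DAP, and 26.4 and 22.3 FPKM at 20 DAP, so later BETL and all but 1 of the MATZ libraries shared 1 range. A MATZ mean of at least 10 FPKM at any age was reached by 8 of the 33 members (24.2%), and the other 25 stayed under it.

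GRMZM2G109448 (chromosome 7, 143296604 to 143298282) had 122 and 109 FPKM in BETL at 8 DAP, 11.4 and 23.7 FPKM at 14 DAP, and 12.3 and 12.7 FPKM at 20 DAP. Its MATZ level was 13.2 and 15.4 FPKM at 8 DAP, 0 in both libraries at 14 DAP, and 2.32 and 6.32 FPKM at 20 DAP. GRMZM2G003909 (chromosome 1, 119412480 to 119413875) had 193 and 128 FPKM in BETL at 8 DAP, 14.7 and 31.3 FPKM at 14 DAP, and 17.5 and 8.50 FPKM at 20 DAP. Its MATZ level was 5.40 and 3.42 FPKM at 8 DAP, 4.76 and 10.8 FPKM at 14 DAP, and 0 in both libraries at 20 DAP. In each of these genes the MATZ libraries of 1 age were both at 0, at 14 DAP in the first and at 20 DAP in the second.

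**Figure D2:**
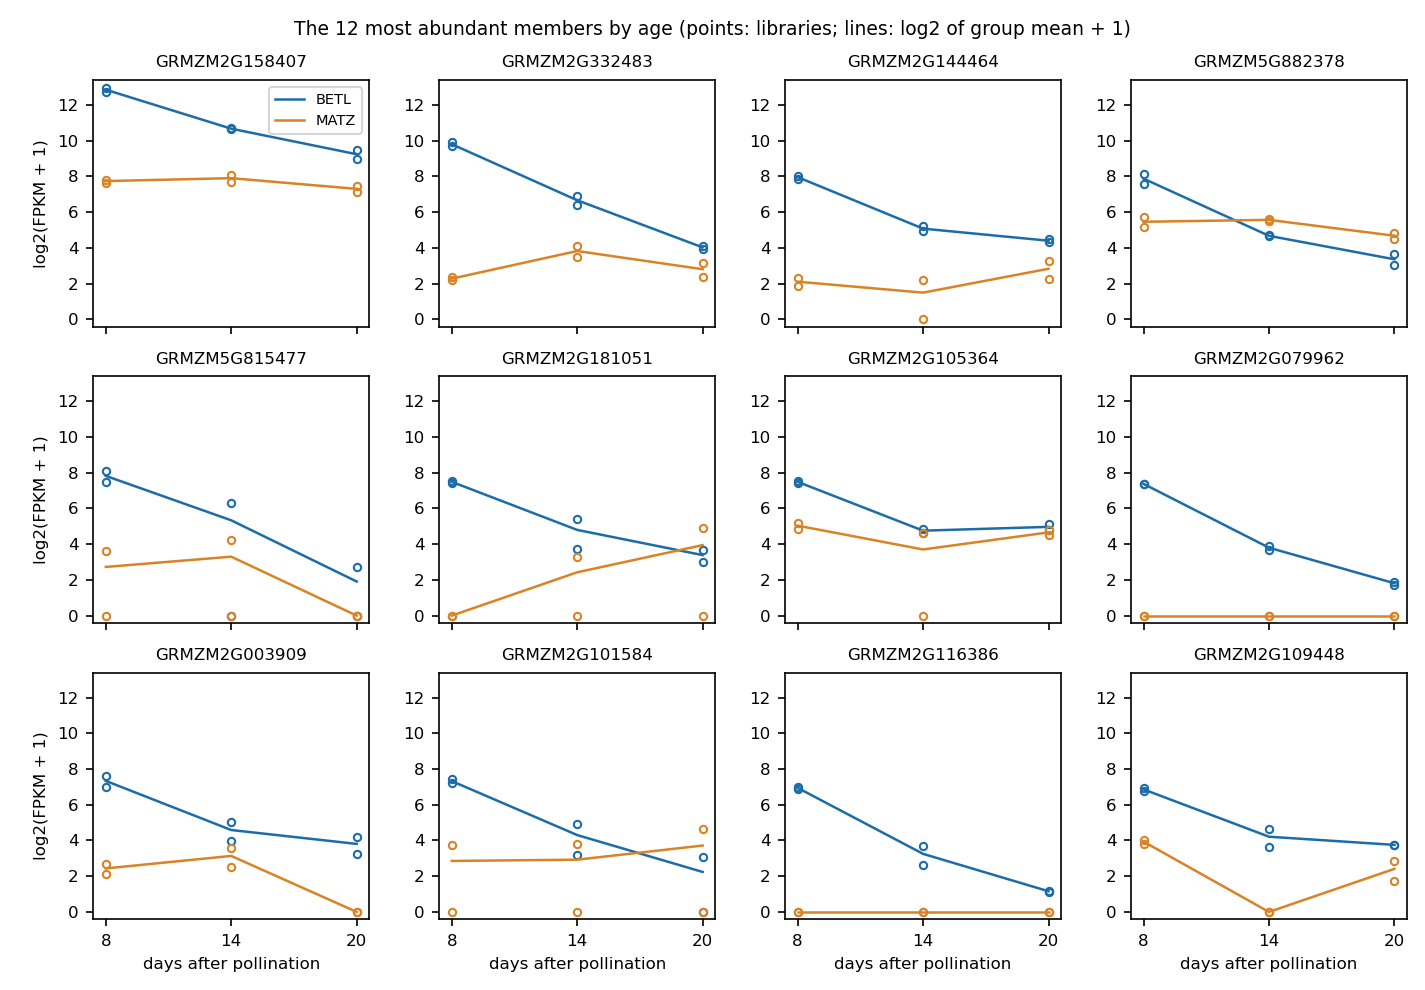
Course of the 12 members with the highest BETL 8 DAP mean over 8, 14 and 20 DAP (x axis), as log2(FPKM + 1) (y axis), with BETL in blue and MATZ in orange; points are libraries and lines join the group means. BETL starts above MATZ in all 12 panels. The BETL line passes below MATZ at 14 DAP in GRMZM5G882378, and at 20 DAP in GRMZM2G181051 and GRMZM2G101584. GRMZM2G079962 and GRMZM2G116386 lie at 0 in all 6 MATZ libraries.

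A group of 8 members was listed at 0 in all 6 MATZ libraries. GRMZM2G079962 (chromosome 2, 236251123 to 236252107) had 165 and 165 FPKM in BETL at 8 DAP, 11.8 and 14.2 FPKM at 14 DAP, and 2.34 and 2.69 FPKM at 20 DAP. GRMZM2G116386 (chromosome 1, 152907597 to 152910284) had 117 and 127 FPKM at 8 DAP, 5.23 and 11.8 FPKM at 14 DAP, and 1.17 and 1.30 FPKM at 20 DAP. In both genes each later BETL age lay below the one before without overlap, and the replicates at 8 DAP were within 1.1-fold. GRMZM2G054658 had 97.0 and 115 FPKM in BETL at 8 DAP, 0 and 11.1 FPKM at 14 DAP, and 3.03 and 0 FPKM at 20 DAP. GRMZM2G437435 had 64.8 and 46.3 FPKM at 8 DAP, 0 and 0.982 FPKM at 14 DAP, and was at 0 at 20 DAP.

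Only 3 members were listed above 0 in no group but BETL at 8 DAP. GRMZM2G145466 (chromosome 7, 13170216 to 13171003) had 90.3 and 92.7 FPKM there. GRMZM2G466848 had 54.4 and 32.0 FPKM there. AC217560.3_FG001 (chromosome 5, 39628190 to 39628627) had 64.0 and 0 FPKM, so that its membership rests on replicate 1, in which its value corresponds to 3.44 inferred fragments. The remaining member that was at 0 throughout MATZ, GRMZM5G822888, has a span of 228 bp and had 73.5 and 20.6 FPKM in BETL at 8 DAP, 0 and 19.8 FPKM at 14 DAP, and 3.62 and 0 FPKM at 20 DAP. Its values at 8 DAP correspond to 2.06 and 1.05 inferred fragments.

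Short spans and few fragments were common among the members. The median span of a member from start to end was 1234 bp, and 15 of 33 (45.5%) spanned under 1000 bp. Of 299 other genes that met the same level and MATZ thresholds at 8 DAP (called BETL-high genes here), 38.5% did, with a median of 1320 bp. This set leaves out a few genes not described here, so it is not every other gene that met both thresholds. Of all tested genes, 10.3% did, with a median of 3236 bp. In at least 1 of the BETL 8 DAP libraries, 17 of the 33 members had under 10 inferred fragments, and 16 had at least 10 in both. Since spans can hold introns, the 17 may be too few and the 16 too many. The split also rests on the approximate depths, so members near 10 inferred fragments may fall on either side. The low values at later ages are limited in the same way: 28 members were above 0 in replicate 2 of BETL at 14 DAP, which had 381002 inferred fragments, and 17 in replicate 1, which had 128148.

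Replicates of BETL at 8 DAP lay closer together in the abundant members. Of the 13 members with a BETL 8 DAP mean of at least 100 FPKM, 11 had replicates within 1.5-fold, and of the 20 members below that level, 7 did. A gap of more than 2-fold was seen in 10 members. The full rule was met by 26 members in replicate 1 taken alone and by 23 in replicate 2, by 16 in both, and every member met it in at least 1 of them. This check of single replicates was chosen after seeing the data.

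**Figure D3:**
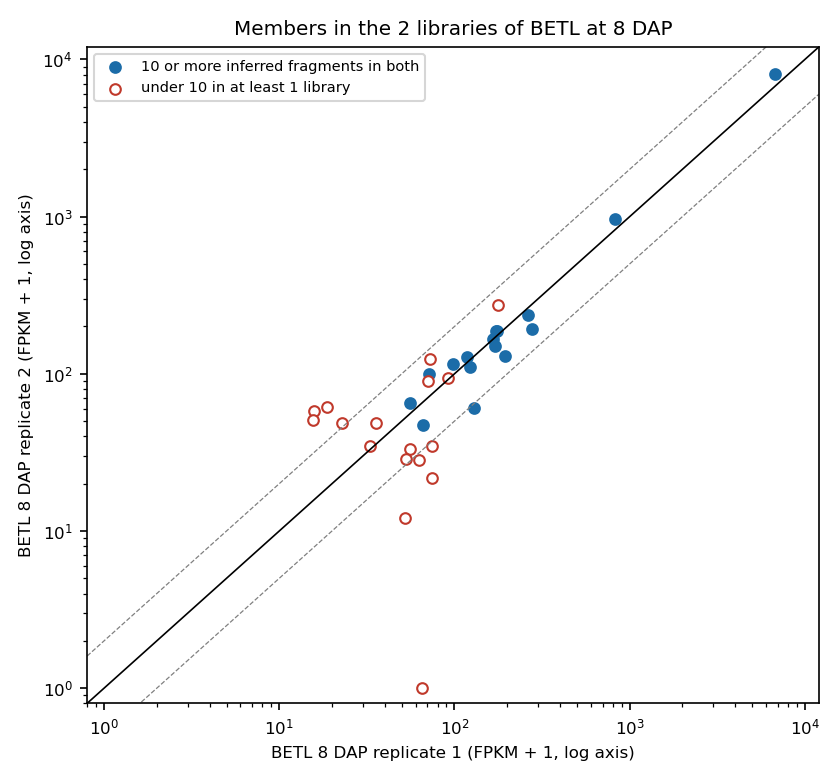
Level of the members in the BETL 8 DAP libraries, replicate 2 (y axis) against replicate 1 (x axis), as FPKM + 1 on log axes; the solid line marks equal values and the dashed lines 2-fold differences. Filled points are the 16 members with at least 10 inferred fragments in both libraries and lie closer to the line than most of the 17 open points, the lowest of which is AC217560.3_FG001.

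Some abundant members varied at the later ages. GRMZM5G815477, spanning 401 bp, had 177 and 275 FPKM in BETL at 8 DAP, 0 and 78.8 FPKM at 14 DAP, and 5.51 and 0 FPKM at 20 DAP. GRMZM2G101584 had 170.1 and 149 FPKM in BETL at 8 DAP, 29.5 and 8.03 FPKM at 14 DAP, and 0 and 7.44 FPKM at 20 DAP, with 24.3 FPKM in 1 MATZ library at 20 DAP and 0 in the other. In both genes the later libraries of 1 group ranged from a clear value to 0. Among members under 100 FPKM, GRMZM2G022253 had 71.6 and 123 FPKM, GRMZM2G386229 had 70.2 and 98.8 FPKM, and GRMZM2G088861 had 54.4 and 64.1 FPKM in BETL at 8 DAP. Larger gaps were seen in GRMZM2G114356 (17.7 and 60.2 FPKM), GRMZM2G020657 (14.8 and 57.2 FPKM) and GRMZM2G496319 (14.6 and 49.6 FPKM), all of them higher in replicate 2. GRMZM2G041317 (50.9 and 11.2 FPKM) went the other way. GRMZM2G100452 had 34.7 and 47.5 FPKM, and GRMZM2G097719 had 32.1 and 33.7 FPKM. Higher values in replicate 1 were found in 15 of the 33 members, so neither library was the higher one throughout.

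Around the thresholds, members and non-members lay close together. For the level of 30 FPKM, the lowest members were GRMZM2G041317 (31.0 FPKM) and AC217560.3_FG001 (32.0 FPKM), and genes that missed it alone included GRMZM2G449327 (27.2 FPKM) and GRMZM2G044107 (26.5 FPKM). For BETL at 8 over 14 DAP, GRMZM2G088861 (4.07 times) and GRMZM2G030858 (4.12 times) were inside, and GRMZM2G028955 (3.87 times) and GRMZM2G091481 (3.59 times) outside. For BETL at 8 over 20 DAP, GRMZM2G041317 (4.85 times) and GRMZM2G088861 (5.73 times) were inside, and GRMZM2G479340 (3.97 times) and GRMZM2G009854 (3.57 times) outside. For BETL over MATZ at 8 DAP, GRMZM2G030858 (4.43 times) and GRMZM5G882378 (5.34 times) were inside, and GRMZM2G422670 (3.91 times) and GRMZM2G101268 (3.62 times) outside. For the smaller of the later BETL over MATZ ratios, which had to be under 4, GRMZM2G158407 (3.84 times) and GRMZM5G815477 (3.76 times) were inside, and GRMZM2G426158 (4.52 times) and GRMZM2G149869 (5.03 times) outside. For MATZ over BETL at 20 DAP, which had to be under 3, GRMZM2G101584 (2.78 times) and GRMZM5G882378 (2.49 times) were inside, and GRMZM2G343818 (3.01 times) and AC209987.4_FG010 (4.87 times) outside. Of the 337 genes that met the level and MATZ thresholds at 8 DAP, 47 also met the one on BETL at 14 DAP, and 43 of these 47 met the one on BETL at 20 DAP as well. The conditions on the later tissue ratios then removed 6 and 2 genes. These counts include genes that are not described here.

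Later tissue preference differed among the members. On means with 1 added, the BETL mean was at least 4 times the MATZ mean in 16 members at 14 DAP and in 5 at 20 DAP, and under 4 times at both ages in 12. The MATZ mean was above the BETL mean in 7 members at 14 DAP and in 4 at 20 DAP. The largest ratio of BETL to MATZ at 14 DAP was 18.5 times (GRMZM2G109448), and the largest at 20 DAP was 14.0 times (GRMZM2G003909). Both reflect a MATZ group listed at 0, so these ratios depend on the added 1.

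A test across all genes was made with limma, a linear model with moderated variances, on log2(FPKM + 1) values of the 24213 genes with at least 1 FPKM in at least 2 libraries. All 12 libraries entered the fit, and adjusted p-values are Benjamini-Hochberg values over the tested genes. Of the members, 32 passed the filter and AC217560.3_FG001 did not. GRMZM2G145466, GRMZM2G466848, GRMZM2G437435 and GRMZM2G496319 passed it only through BETL at 8 DAP, the group in which the rule asked for high levels. In the contrasts that the rule used, 24 members were higher in BETL than in MATZ at 8 DAP (2.16% of all tested genes were), 20 were lower in BETL at 14 than at 8 DAP (2.58% of all), and 23 were lower in BETL at 20 than at 8 DAP (3.45% of all). These counts restate the choice. They also depend on single libraries: without replicate 1 of BETL at 8 DAP they were 11, 7 and 7, and without its replicate 2 they were 15, 11 and 11. The first was 15 and 12 without replicate 1 or 2 of MATZ at 8 DAP, the second 7 without replicate 1 of BETL at 14 DAP, and the last 10 and 8 without replicate 1 or 2 of BETL at 20 DAP.

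Between 20 and 14 DAP in BETL, where the rule sets no threshold, 2 members fell further and none of the 32 tested rose at an adjusted p under 0.05. Among all tested genes, 0.525% were lower and 0.277% higher. Libraries of both ages enter the rule as values that could reach at most the 8 DAP level divided by 4. The condition that the BETL mean be under 4 times the MATZ mean at 14 or 20 DAP also bears on the comparison, since 28 of the 33 members met it at 20 DAP, which favours low BETL values at that age. The members are thus not a free sample of genes here. GRMZM2G332483 fell by 2.62 ± 0.41 on the log2 scale (SE; limma adjusted p = 0.0232), with both BETL libraries at 20 DAP (14.3 and 16.3 FPKM) below both at 14 DAP (82.8 and 119 FPKM). GRMZM2G158407 fell by 1.45 ± 0.23 (SE; limma adjusted p = 0.0234), to 705 and 507 FPKM at 20 DAP against 1608 and 1659 FPKM at 14 DAP. Neither call held without any 1 of the 4 BETL libraries compared: the limma adjusted p was then 0.0770 to 0.256 for the first and 0.0727 to 0.237 for the second. At an unadjusted p under 0.05, 6 members were lower and 1 was higher (21.9% of the members tested, against 8.62% of all tested genes).

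Over the 32 tested members the median log2 difference of BETL at 20 against 14 DAP was -0.78, and 23 of them (71.9%) were negative. These values describe the members as chosen and are no evidence of a common course. The median over all tested genes was 0.00, with 49.6% negative. The other 299 BETL-high genes had a median of -0.15, with 57.5% negative, 10 called lower and 2 called higher. Members with the next smallest p-values were GRMZM5G882378 (-1.35 ± 0.37, SE; limma adjusted p = 0.190), GRMZM2G079962 (-1.99 ± 0.64, adjusted p = 0.303) and GRMZM2G116386 (-2.00 ± 0.69, adjusted p = 0.361). The member with the largest positive difference was GRMZM2G041317, at 7.33 and 3.87 FPKM at 20 DAP against 0 in both libraries at 14 DAP (limma adjusted p = 0.525). Starchy endosperm markers were at 1487 and 1422 FPKM in BETL at 20 DAP against 4028 and 3916 FPKM at 14 DAP, and inferred depth was 602294 and 492837 fragments at 20 DAP against 128148 and 381002 at 14 DAP. The part of either in these differences was not tested.

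**Figure D4:**
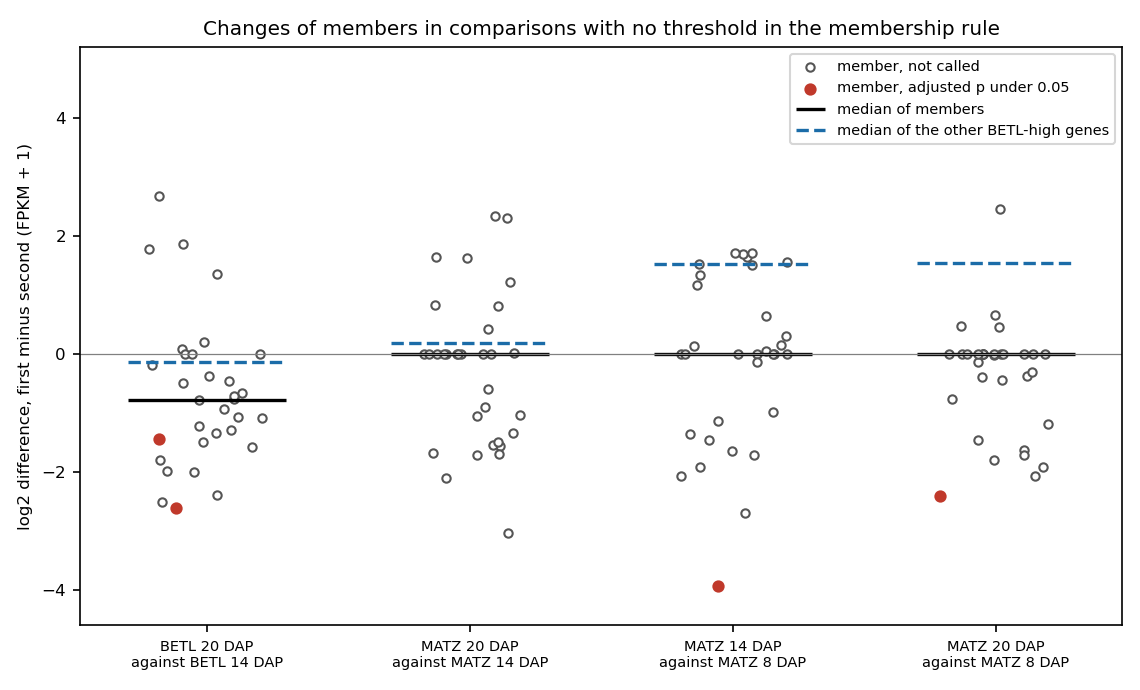
Log2 difference (y axis, first minus second group, on FPKM + 1) of each of the 32 tested members in 4 comparisons on which the rule sets no threshold. Filled points passed an adjusted p of 0.05; the black bar is the median of the members, at -0.78 in BETL and 0 in the 3 MATZ comparisons, and the dashed bar the median of the other 299 BETL-high genes, at -0.15, 0.17, 1.52 and 1.53.

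In MATZ at most 1 tested member was called in either direction of an age comparison. Tested members at 0 throughout MATZ could not be called there, yet they count among the 32. Some of the 32 also passed the filter only through BETL at 8 DAP. The shares of members beside those of all tested genes are thus a description only. Of the 32 tested, 1 (3.12%) fell at 14 against 8 DAP (2.48% of all tested genes did) and none rose (3.11% of all did), with 1 higher and 4 lower at an unadjusted p under 0.05 (15.6% of the members, 19.1% of all tested genes). The gene was GRMZM2G109448, listed at 0 in both MATZ libraries at 14 DAP against 13.2 and 15.4 FPKM at 8 DAP (log2 difference -3.93 ± 0.57, SE; limma adjusted p = 0.00472). Inferred depth was 295279 and 162148 fragments for the 8 DAP libraries of MATZ. For its 14 DAP libraries it was 190951 and 115929. The 8 DAP values of GRMZM2G109448 thus correspond to few inferred fragments, and whether the zeros mean a loss of its RNA was not tested. At 20 against 8 DAP, 1 (3.12%) fell (2.88% of all) and none rose (4.39% of all), with 4 lower and none higher at an unadjusted p under 0.05 (12.5% of the members, 20.95% of all tested genes). This was GRMZM2G003909, at 0 in both MATZ libraries at 20 DAP against 5.40 and 3.42 FPKM at 8 DAP (-2.41 ± 0.63, SE; limma adjusted p = 0.0488). These low values correspond to still fewer inferred fragments, and the 20 DAP libraries of MATZ had an inferred depth of 256855 and 94114. Whether RNA of GRMZM2G003909 was lost there was likewise not tested. Its call held in only 5 of 21 other settings, with adjusted p-values between 0.00339 and 0.270, and it was lost without any 1 library of either tissue other than those of MATZ at 14 DAP (0.0507 to 0.175). At 20 against 14 DAP none of the members passed, against 1.47% of all tested genes in either direction, with 2 higher and 4 lower at an unadjusted p under 0.05 (18.8% of the members, 13.1% of all tested genes). Without replicate 2 of MATZ at 14 DAP, GRMZM2G105364 was called in 2 comparisons, higher at 20 than at 14 DAP and lower at 14 than at 8 DAP.

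The median log2 difference of the members was 0 in all 3 MATZ comparisons. Many members lay at the floor there: 15, 14 and 21 of the 33 were at 0 in both MATZ libraries at 8, 14 and 20 DAP. Of the 32 tested, 7 had a difference of exactly 0 at 14 against 8 DAP, 13 at 20 against 8 DAP and 10 at 20 against 14 DAP. The median of 0 thus does not show a steady level in MATZ. For 14 against 8 DAP the median was 0.14 over all tested genes and 1.52 over the other 299 BETL-high genes, of which 106 were called higher and 10 lower. For 20 against 8 DAP it was 0.33 over all tested genes and 1.53 over the other BETL-high genes, of which 119 were called higher and 7 lower. The difference between the members and the other BETL-high genes was not tested. The rule also bears on it, since members were limited to a MATZ level under 3 times their own low BETL level at 20 DAP. Its condition that the BETL mean be under 4 times the MATZ mean at 14 or 20 DAP can favour higher MATZ levels instead. No condition sets an upper limit on MATZ at 14 DAP. The BETL marker sum in MATZ was 7670.3 and 6990.1 FPKM at 14 DAP and 11789 and 10436 FPKM at 20 DAP, against 2290.1 and 2909 FPKM at 8 DAP, and starchy endosperm markers in MATZ were at 10318 and 9943 FPKM at 14 DAP and 801 and 1012 FPKM at 20 DAP, against 56.1 and 78.9 FPKM at 8 DAP. The part of either in the MATZ comparisons was not tested.

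Known BETL genes were set beside the members by name. Of 24 genes with names of basal endosperm families, 15 were BETL-high at 8 DAP and none of these had a BETL 8 DAP mean at least 4 times that at both later ages, the genes not described here aside. Of the 19 that could be tested, 2 were higher and 2 lower in BETL at 14 than at 8 DAP (limma adjusted p under 0.05; 9.06% of all tested genes were higher and 2.58% lower). At 20 against 8 DAP, 4 were higher and 2 lower (8.01% and 3.45% of all). The median log2 difference of these 19 genes was -0.59 at 14 against 8 DAP and -1.01 at 20 against 8 DAP. Over all tested genes it was 0.75 and 0.79. A named gene with the same order of ages, picked after seeing the values, was betl2 (GRMZM2G152655), which encodes a small secreted peptide and averaged 13024 FPKM in BETL at 8 DAP, 4267 FPKM at 14 DAP and 1517 FPKM at 20 DAP. In the other direction, betl1 (GRMZM2G082785), also a peptide gene, averaged 1719 FPKM at 8 DAP, 6947 FPKM at 14 DAP and 9357 FPKM at 20 DAP. Of the other BETL markers, mn1, meg1 and BURP7 also averaged less at each later age. The markers betl3, betl9 and tcrr1 averaged more at each later age, and betl4 and betl10 followed neither order. All 3 genes of the embryo surrounding region, the endosperm around the embryo, were BETL-high at 8 DAP, and none met the condition on later BETL. In 16 other lists of named genes, among them cell cycle, cell wall, hormone, transcription factor, sugar and transporter lists, between 0 and 3 genes were BETL-high at 8 DAP and none of those met it.

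No list could hold a member, because 16 of the 33 (48.5%) matched a RefSeq record and none of those carries a descriptive name. Of the other BETL-high genes 62.2% matched a record and 14.7% have such a name, and of all tested genes 66.2% and 10.1%. What the members encode is thus not given by the sources used here, and no protein or promoter sequence of them was at hand.

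The members were spread over all 10 chromosomes, with 6 each on chromosomes 1 and 7, 5 each on 5 and 8, and between 1 and 3 on each of the others. A BETL-high gene lay within 100 kb of 12 of the 33 members (36.4%), of 20.7% of the other BETL-high genes and of 4.40% of tested genes. Counting only neighbours that do not overlap the gene itself, it was 8 members (24.2%), 18.1% of the other BETL-high genes and 4.33% of tested genes. Positions are those of the deposited table, whose genome build is not given in the sources used here. Neighbouring copies of a gene family can share reads, and how such reads were divided is not stated.

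On chromosome 8, 4 BETL-high gene models lay within 65 kb, and 2 of them are members. GRMZM2G075386 (143117574 to 143118200) had 69.4 and 89.6 FPKM in BETL at 8 DAP, 0 and 13.1 FPKM at 14 DAP, and 0 and 2.88 FPKM at 20 DAP. GRMZM2G466848 (143151255 to 143151744) was listed above 0 in BETL at 8 DAP alone. Between and beside them, GRMZM2G466856 averaged 56.8 FPKM in BETL at 8 DAP, 4.70 FPKM at 14 DAP and 5.66 FPKM at 20 DAP and was at 0 throughout MATZ. GRMZM2G376674 averaged 108 ± 37.2 FPKM (SD, n = 2), 42.3 ± 1.64 FPKM and 2.69 ± 0.179 FPKM at these ages and missed the rule at 14 DAP. All 4 thus had their highest BETL mean at 8 DAP and MATZ means of at most 4.09 FPKM.

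**Figure D5:**
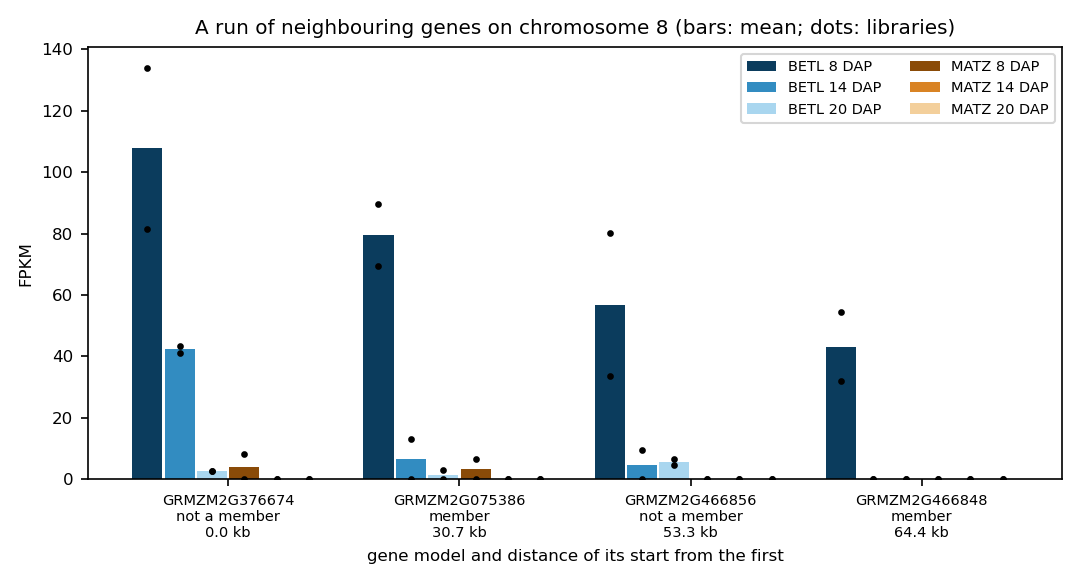
Mean level in FPKM (bars; dots are libraries) of the 4 neighbouring gene models on chromosome 8 in the 6 groups, with the distance of each start from that of the first model. The BETL 8 DAP bar is the tallest for every gene, at 108, 79.5, 56.8 and 43.2 FPKM, and the MATZ bars are at or near 0.

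Other members lay beside known peptide genes of the BETL. GRMZM2G158407 lay 74914 bp from betl10 (GRMZM2G091445), which averaged 5967 ± 667 FPKM in BETL at 8 DAP, 6125 ± 827 FPKM at 14 DAP and 5138 ± 595 FPKM at 20 DAP (SD, n = 2 each). The BETL libraries of betl10 overlapped between the ages, and those of the member did not. GRMZM2G181051 (chromosome 7, 12618639 to 12619361) had 173 and 185 FPKM in BETL at 8 DAP, 12.2 and 41.5 FPKM at 14 DAP, and 12.01 and 6.96 FPKM at 20 DAP. In MATZ it was at 0 at 8 DAP, at 8.75 and 0 FPKM at 14 DAP, and at 28.9 and 0 FPKM at 20 DAP, so the MATZ values rest on replicate 1. It lay 49656 bp from GRMZM2G088896 and 82054 bp from GRMZM2G094054, which match RefSeq records named for the MEG family of maternally expressed secreted peptides. Their BETL means were 1266 and 907 FPKM at 8 DAP, 854 and 266 FPKM at 14 DAP, and 717 and 175 FPKM at 20 DAP. Another neighbour, GRMZM2G137959, which has no name, averaged 396 FPKM at 8 DAP, 112 FPKM at 14 DAP and 110.0 FPKM at 20 DAP.

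GRMZM2G149930 (chromosome 5, 211606922 to 211608155) had 21.7 and 47.9 FPKM in BETL at 8 DAP, 0 and 3.12 FPKM at 14 DAP, and 0 and 2.14 FPKM at 20 DAP. Its neighbour GRMZM2G149869, 8688 bp away, averaged 350 ± 77.5 FPKM at 8 DAP, 19.3 ± 10.05 FPKM at 14 DAP and 4.03 ± 5.71 FPKM at 20 DAP (SD, n = 2 each). That gene was no member because its BETL mean exceeded its MATZ mean over 4 times at both later ages. On the other side, 3337 bp away, GRMZM2G449327 averaged 27.2 FPKM in BETL at 8 DAP and was at 0 in the other 5 groups, and it missed the level of 30 FPKM alone. GRMZM2G109448 and GRMZM2G335111, 43004 bp apart on chromosome 7, are both members. GRMZM2G335111 had 51.7 and 27.6 FPKM in BETL at 8 DAP, 0 and 1.65 FPKM at 14 DAP, and 1.51 and 5.87 FPKM at 20 DAP. Both were at 0 in MATZ at 14 DAP and above 0 in both MATZ libraries at 8 DAP.

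In 5 members the gene model overlaps another one, and whether fragments were assigned by strand is not stated, so their values may not be separate measurements. GRMZM2G424072 and GRMZM5G865162 share 807 bp of chromosome 1 (start 297406061) on opposite strands. They had 73.8 and 34.0 FPKM and 61.7 and 27.5 FPKM in BETL at 8 DAP, and both were above 0 in the same 6 libraries. They may count as 1 locus. GRMZM5G882378 overlaps AC209987.4_FG010 over 917 bp on opposite strands. The partner averaged 567 FPKM in BETL at 8 DAP, 56.8 FPKM at 14 DAP and 18.5 FPKM at 20 DAP, and 109, 87.3 and 93.8 FPKM in MATZ at these ages, and was left outside by its MATZ level at 20 DAP. GRMZM2G030858 (128.7 and 59.9 FPKM in BETL at 8 DAP, span 10536 bp) overlaps GRMZM2G028955, which averaged 197 FPKM in BETL at 8 DAP, 50.3 FPKM at 14 DAP and 17.6 FPKM at 20 DAP, over 756 bp. It also overlaps GRMZM2G033117 over 2612 bp on the opposite strand, and that model averaged 13.6 FPKM in BETL at 8 DAP, 39.7 FPKM at 14 DAP and 39.2 FPKM at 20 DAP, lowest at 8 DAP. AC217560.3_FG001 lies within GRMZM2G464011, which had 35.2 and 0 FPKM in BETL at 8 DAP and so the same replicate at 0.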

How the data were processed

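RNA of 12 libraries was measured by RNA-seq. The authors deposited 1 table of FPKM values per gene model and library, and the submitters' processing notes name TopHat2, Bowtie2 and Cufflinks. Their versions, the genome build, the annotation and the strand setting are not given there or in the file header. Samples were grouped by tissue and age from the labels. Members, gene lists and tests were chosen with earlier results of these data known. Members were found on the means of the 2 libraries of a group plus 1.

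Tests covered genes that reached 1 FPKM in 2 or more libraries and used limma 3.58.1 in R 4.3.3 on log2(FPKM + 1), which understates changes of low genes. The fit used 6 group means over 12 libraries with a mean trend (6 residual and 3.79 prior degrees of freedom), and Benjamini-Hochberg adjustment over all tested genes with a threshold of 0.05. The steps were tested on simulated data. No scaling was added. The median log2 difference over all tested genes was 0.75 for BETL at 14 against 8 DAP and 0.79 at 20 against 8 DAP, and 0.44 and 0.57 under median-of-ratios scaling.

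Depth was inferred from steps in low values over gene spans of the table and is not a count, so no count test was run. Precision is limited by 2 libraries a group. Gene names were looked up in RefSeq (assembly Zm-B73-REFERENCE-NAM-5.0), whose coordinates were not used. From the lists, 9 genes matched by another sense of a name were taken out. Genes named were the 12 members with the highest BETL 8 DAP mean, the 8 with the highest ratio of that mean to the highest other group, called members, genes beside a threshold and members within 100 kb of another. Other members and neighbours were named after their values were seen. Settings varied were the added constant (0.1 or 5), the filter, scaling, a replicate block, the groups in the fit, the mean trend and each library left out. Figures used matplotlib 3.10.9.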

Additional observations from a re-analysis of the deposited data

Results flagged for a closer look

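GRMZM2G144464, the third most abundant member, differed between the tissues in its change at 20 against 14 DAP. It had 18.7 and 21.5 FPKM in BETL at 20 DAP against 29.4 and 36.2 FPKM at 14 DAP, and 8.54 and 3.72 FPKM in MATZ at 20 DAP against 3.64 and 0 FPKM at 14 DAP. Both BETL libraries at 20 DAP thus lay below both at 14 DAP, and both MATZ libraries at 20 DAP above both at 14 DAP, which is what drew attention to it. In MATZ this order rests on 3.72 against 3.64 FPKM, values that are close together and near the floor. The BETL change minus the MATZ change was -2.31 on the log2(FPKM + 1) scale, with an unadjusted p of 0.0415 and an adjusted p of 0.491 by limma over all tested genes, so the difference did not pass the test.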

How the results depend on the processing

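The rule gave 33 genes, and 59 after median-of-ratios scaling, 31 of them members. The other settings gave 25 to 43, and leaving out 1 library 29 to 41. The most abundant member, GRMZM2G158407, met the rule in 12 of 16 other settings. It was lost under median-of-ratios scaling, under quantile normalization, and without replicate 2 of BETL or replicate 1 of MATZ at 20 DAP. Directions of the 4 called changes held in all 21 settings. The 2 members lower in BETL at 20 than at 14 DAP became 1 under quantile normalization, 0 with only the compared groups in the fit, 0 without the mean trend, and 0 to 2 with 1 library left out. For MATZ at 20 against 14 DAP, where none was called, 1 was higher and 1 lower with an added constant of 0.1, 1 lower with a filter of 5 FPKM, and 0 to 1 higher with 1 library left out. The 1 member lower in MATZ at 14 than at 8 DAP became 2 under median-of-ratios scaling, 2 under quantile normalization, 0 with only the compared groups, and 1 to 2 with 1 library left out. The 1 lower in MATZ at 20 than at 8 DAP became 0 with an added constant of 5, 0 with no filter, 3 under median-of-ratios scaling, 0 with only the compared groups, 0 without the mean trend, and 0 to 1 with 1 library left out. Of the contrasts the rule used, the 24 higher in BETL at 8 DAP became 0 with only the compared groups and 11 to 24 with 1 library left out. The 20 lower in BETL at 14 than at 8 DAP became 10 with an added constant of 0.1, 0 with only the compared groups, and 7 to 22 with 1 library left out. The 23 lower at 20 than at 8 DAP became 12 with an added constant of 0.1, and 7 to 25 with 1 library left out. The causes were not tested.

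No shared deviation of same-numbered libraries was seen: over 15 pairs of groups the correlation of their deviations was -0.0168 to 0.0164. This cannot settle whether replicate numbers pair the libraries, since noise in single libraries could hide a shared part, and the labels leave it open. A replicate block took the 1 member lower in MATZ at 20 than at 8 DAP to 0, and gave 22, 18 and 21 in the 3 contrasts the rule used. Inferred depth limits what can be said of members with under 10 fragments.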
